A study of Homo sapiens with 12 samples.

Results

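Amino acid transporters of the plasma membrane were examined in HepG2 cells, a line derived from a human hepatocellular carcinoma. The 9 genes are SLC3A2, SLC7A5, SLC7A6, SLC43A1, SLC7A1, SLC1A4, SLC1A5, SLC38A1 and SLC38A2, and they were chosen by symbol from the 57353 genes and other features in the count table. All 9 are in the table, and all 9 were among the 14955 features that passed the filter on low counts. The cells, labelled as wild type, received either the vehicle DMSO or 10 µM sorafenib, a multikinase inhibitor used in liver cancer, for 12 h, in a medium containing glutamine, serum and added non-essential amino acids. Lysates made in the presence of cycloheximide, which holds ribosomes on the RNA they are reading, were separated on sucrose gradients. The light pool held low-molecular complexes, free ribosomal subunits and single ribosomes, and the polysome pool held RNA carrying several ribosomes. Each treatment had 3 cultures, and the RNA of both pools of a culture was sequenced, which makes 4 groups of 3 and 12 libraries from 6 cultures of 1 cell line.

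Amino acid transporters set how fast a cell exchanges and takes up the building blocks of protein. SLC3A2 encodes the CD98 heavy chain, which carries no amino acid itself but brings light chains such as LAT1 (SLC7A5) and y+LAT2 (SLC7A6) to the cell surface through a disulfide bond. LAT1 exchanges internal glutamine for external leucine and other large neutral amino acids, and ASCT2 (SLC1A5) and SNAT transporters such as SLC38A1 and SLC38A2 help to load the cell with glutamine. Several of these genes are known targets of ATF4, the transcription factor of the amino acid response, which acts through DNA elements that pair half-sites for C/EBP and ATF proteins.

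The sequence near the start sites of the 9 genes was read from RefSeq promoter windows of build GRCh38.p14, each running from 250 bases before to 50 bases after a start. All 9 symbols matched, with 16 windows in all. The core of an amino acid response element, searched as TGATGNAA on both strands, was in 5 of the 16 windows, 1 for each of SLC3A2, SLC7A1, SLC1A4, SLC1A5 and SLC38A1. The same letters were in 3.62% of all 35116 windows and in 4.46% of the 27305 genes with a window. The matches are shown as a description, and their part in the response to sorafenib was not tested. On polysomes SLC3A2, SLC7A1, SLC1A4 and SLC1A5 rose with sorafenib, and SLC38A1 fell, with the least stable result of the 9. SLC43A1 rose without a match. Each line gives the window's strand of transcription, and capitals mark the match.
SLC3A2: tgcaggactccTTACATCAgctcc
SLC7A1: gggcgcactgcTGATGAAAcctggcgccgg
SLC1A4: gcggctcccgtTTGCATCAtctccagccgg
SLC1A5: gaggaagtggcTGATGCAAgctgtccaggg
SLC38A1: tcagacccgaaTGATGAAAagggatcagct
SLC7A5: gccggacgacgCACGTGctccgagctgg
These stretches lie at chr11:62881725-62881748 on the plus strand for SLC3A2, chr13:29595663-29595692 on the minus strand for SLC7A1, and chr2:64989381-64989410 on the plus strand for SLC1A4. Those of SLC1A5 and SLC38A1 lie at chr19:46784893-46784922 and chr12:46266502-46266531, both on the minus strand. In SLC3A2 and SLC1A4 the letters read TGATGNAA on the opposite strand. The match began 38 bases after one of 3 listed starts of SLC3A2, 8 bases after the start of SLC7A1, 7 bases before one of 2 starts of SLC1A4, 97 bases before one of 3 starts of SLC1A5 and 4 bases before one of 2 starts of SLC38A1. The last sequence, at chr16:87869621-87869648 on the minus strand, is the window of SLC7A5 around an E-box, CACGTG, a site read by MYC and its relatives. CACGTG reads the same on both strands. It was in 3 of the 16 windows, 1 each of SLC7A5, SLC1A5 and SLC43A1, and in 7.26% of all windows. A match is only a string of letters and no binding was measured in these libraries.

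Library totals ran from 511065 to 13336689 counts. The sorafenib light-pool libraries were the shallowest, at 2060384, 511065 and 4989312 counts for replicates 1, 2 and 3. They also varied most among themselves: Pearson correlations between replicates were 0.74 to 0.9 there and 0.94 to 0.98 in the other 3 groups. At an equal depth of 500000 counts, replicates 1 and 2 of that group showed 16740 and 25456 detected genes against 13187 to 14467 in the other 10 libraries. All 10 hepatocyte and HepG2 markers were present, with summed levels of 6170 to 14500 CPM (counts scaled to an equal library total) in vehicle and 22000 to 33500 CPM in sorafenib libraries. The 5 fibroblast markers summed to at most 3.53 CPM and the 4 endothelial markers to at most 1.24 CPM outside the sorafenib light pool, where they reached 29.9 and 26.2 CPM, with no marker above 12 counts in any library. Of 5 leukocyte markers, which summed to 97.5 to 537 CPM, LYZ (83.6 to 520 CPM) and CD68 (12.1 to 39.9 CPM) were present and PTPRC, the pan-leukocyte antigen, was at or below 1.87 CPM. The part of these marker and depth differences in the results was not tested, and the 9 genes' treatment differences in the light pool are given with and without the shallow pair of libraries, replicates 1 and 2. Without that pair the sorafenib light group is 1 library, replicate 3, and has no spread of its own. A light-pool difference is then 1 library against 3, and any p-value beside it takes its spread from the other groups.

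All CPM are after TMM scaling, which corrects library totals for the makeup of each library. It was done once over the 12 libraries of both pools, with the shallowest, sorafenib light replicate 2, as the reference. A treatment difference is therefore not measured from the bulk of genes in its own pool. The median difference of all genes was -0.26 on polysomes and -0.12 in the light pool. With each pool scaled and fitted alone it was 0.02 and -0.02. No unfractionated RNA was used here, so more RNA of a gene and a move of the same RNA between pools cannot be told apart within one pool. Lengths of the transcripts were not used here, so no gene's level is set against another's. Differences are log2 fold changes ± SE from edgeR's quasi-likelihood test over 14955 genes, with Benjamini-Hochberg adjusted p, and a gene rose or fell where the adjusted p was under 0.05.

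The 9 genes together took 0.0684%, 0.0693% and 0.0709% of all counts in the vehicle polysome libraries and 0.173%, 0.104% and 0.183% in the sorafenib polysome libraries, replicates 1 to 3. In the light pool the shares were 0.0369%, 0.0414% and 0.0339% with vehicle and 0.0458%, 0.0409% and 0.0629% with sorafenib. Much of the polysome gain was SLC3A2. It held 4.9% to 9.76% of the 9 genes' counts in the vehicle polysome libraries and 39.7% to 48.7% in the sorafenib ones.

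**Figure D1:**
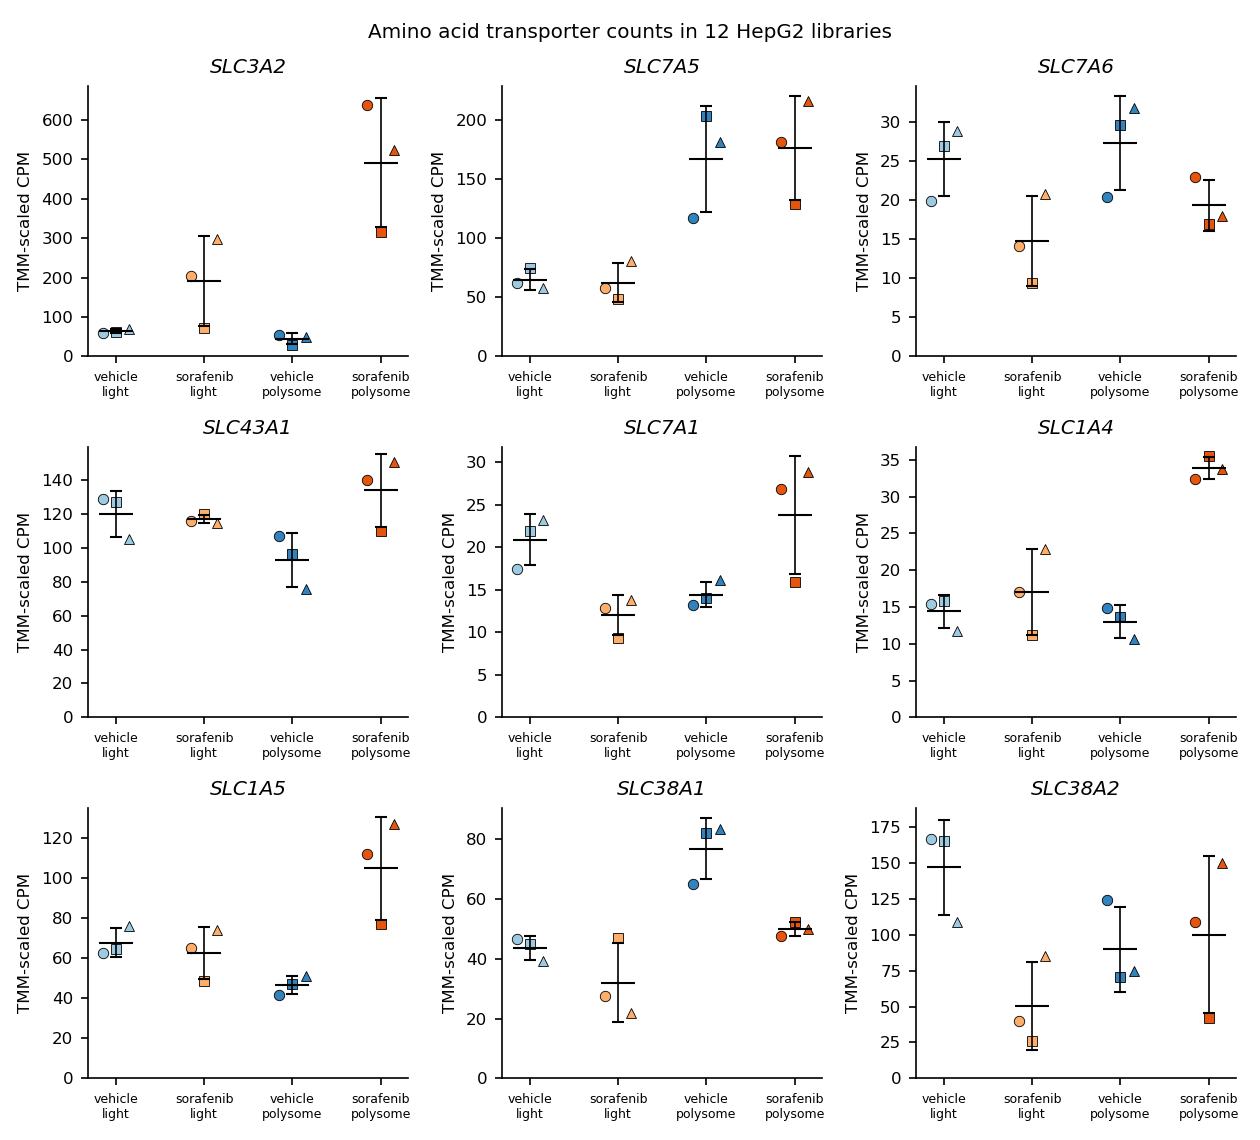
TMM-scaled CPM of each of the 9 transporters (vertical axis, each panel on its own scale) in the 4 groups, with bars at the mean, error bars of 1 SD and symbols for replicates 1 to 3. SLC3A2 stands at 316 to 637 CPM in the sorafenib polysome libraries and at 28.7 to 54.4 CPM in the vehicle ones, while SLC7A5 is higher in the polysome than in the light pool under both treatments.

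The heavy chain gene SLC3A2 had the largest change of the 9. In the polysome pool its level was 54.4, 28.7 and 49.9 CPM in vehicle replicates 1, 2 and 3, a mean of 44.3 ± 13.7 (SD, n = 3), and 637, 316 and 523 CPM in the sorafenib replicates, a mean of 492 ± 163 (SD, n = 3). Every sorafenib polysome library was above every vehicle one by a wide margin. SLC3A2 rose by 3.47 ± 0.4 on the log2 scale, 11-fold, with a 95% interval of 2.63 to 4.3 and an edgeR adjusted p of 2.96e-06. By size it was rise number 34 among the 14955 genes.

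Light-pool levels of SLC3A2 were 60.3, 61.7 and 68.9 CPM with vehicle and 204, 71.1 and 298 CPM with sorafenib. The sorafenib libraries again lay above all vehicle libraries, but replicate 2, with 38 SLC3A2 counts, lay only just above them. SLC3A2 rose there by 1.63 ± 0.38 (edgeR adjusted p = 0.00345), and its difference was 2.38 without the shallow pair. Its 4 groups ran in the order vehicle polysome, vehicle light, sorafenib light, sorafenib polysome, and no neighbours in that order overlapped. The polysome rise exceeded the light rise by 1.84 ± 0.52 (edgeR adjusted p = 0.0151), a difference that was 1.34 and no longer passed the test without the shallow pair (edgeR adjusted p = 0.0627).

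SLC7A5, which encodes the LAT1 light chain that pairs with the heavy chain, did not pass the test for treatment in either pool. With vehicle it was at 117, 203 and 181 CPM in the polysome pool and at 62.1, 74.5 and 58.1 CPM in the light pool. With sorafenib it was at 181, 129 and 216 CPM in the polysome pool and at 57.5, 48.6 and 80.6 CPM in the light pool. Treatment groups overlapped in both pools, and the polysome difference was 0.07 ± 0.26 with a 95% interval of -0.46 to 0.61 (edgeR adjusted p = 0.828). The light-pool difference was -0.02 ± 0.27 with an interval of -0.58 to 0.55 (edgeR adjusted p = 0.969), and 0.46 without the shallow pair (edgeR adjusted p = 0.34). The polysome interval ends below the start of the SLC3A2 interval from the same libraries.

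Like SLC38A1, SLC7A5 was richer on polysomes under both treatments. It was higher in the polysome than in the light pool by 1.36 ± 0.26 with vehicle (edgeR adjusted p = 4.93e-04) and by 1.45 ± 0.27 with sorafenib (edgeR adjusted p = 8.61e-04). The polysome and light libraries did not overlap under either treatment. SLC7A5P2, a pseudogene of SLC7A5, had at most 189 counts in any library and at most 34.6% of the SLC7A5 count in any library, and reads of such copies can be split between both.

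SLC7A6, which encodes the light chain y+LAT2, an exchanger of arginine and glutamine, had lower means with sorafenib in both pools, without passing the test. Its polysome levels were 20.4, 29.6 and 31.8 CPM with vehicle and 22.9, 16.9 and 17.9 CPM with sorafenib, which overlap, and the difference was -0.5 ± 0.25 (edgeR adjusted p = 0.101). Without vehicle polysome replicate 1 the difference was -0.7 and passed (edgeR adjusted p = 0.0391). Light-pool levels were 19.9, 26.9 and 28.8 CPM with vehicle and 14.1, 9.35 and 20.8 CPM with sorafenib, a difference of -0.62 ± 0.29 (edgeR adjusted p = 0.111). It was -0.12 without the shallow pair (edgeR adjusted p = 0.824) and passed at -1.02 without the deeper replicate 3 (edgeR adjusted p = 0.0404). SLC7A6 shares its locus with SLC7A6OS, which had up to 329 counts and up to 171% of the SLC7A6 count in a library, and whether the counting used strand is unknown here.

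Because the heavy chain serves both light chains, the ratio of their counts was also taken within each library, where scaling cancels. The log2 ratio of SLC3A2 to SLC7A5 counts in the polysome pool was -1.1, -2.82 and -1.86 with vehicle and 1.81, 1.29 and 1.28 with sorafenib. It moved by 3.39, or 10.4-fold, and the treatments did not overlap. In the light pool the same ratio was -0.04, -0.27 and 0.25 with vehicle and 1.82, 0.54 and 1.89 with sorafenib, a shift of 1.44 or 2.71-fold. The log2 ratio of SLC7A5 to SLC7A6 was higher with sorafenib by 0.57 in the polysome pool and by 0.7 in the light pool, again without overlap. Each of these 4 shifts had a two-sided exact permutation p of 0.1, the smallest that 3 against 3 libraries allow, and 0.2 after adjustment over the 8 ratio comparisons made.

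**Figure D2:**
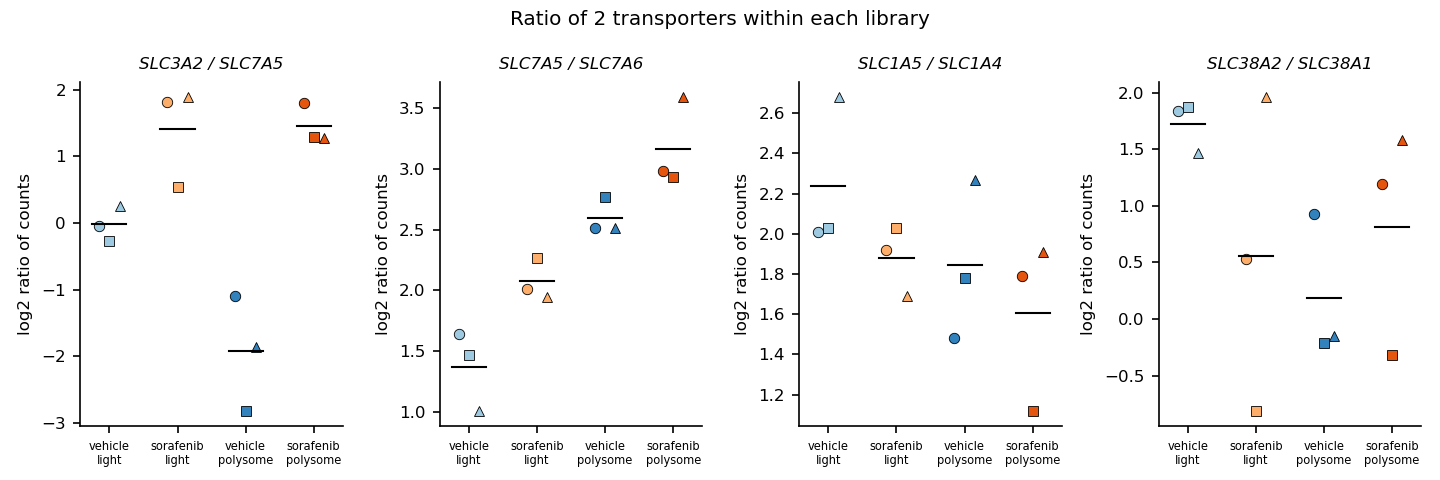
Log2 ratio of the counts of 2 transporters within each library (vertical axis), by pair and group, with symbols for replicates and a line at the mean of 3 libraries. The SLC3A2 to SLC7A5 ratio is between -2.82 and -1.1 in the vehicle polysome libraries and between 1.28 and 1.81 in the sorafenib ones.

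SLC43A1 encodes LAT3, a uniporter of leucine and other branched-chain amino acids that needs no heavy chain. In the polysome pool it was at 107, 96.6 and 75.6 CPM with vehicle and at 140, 110 and 151 CPM with sorafenib. The groups did not overlap, though vehicle replicate 1 and sorafenib replicate 2 were close. SLC43A1 rose by 0.53 ± 0.21 (edgeR adjusted p = 0.0463), and the call did not hold without vehicle polysome replicate 1, 2 or 3 or without sorafenib polysome replicate 1 or 3 (0.39 to 0.61, edgeR adjusted p of 0.0543 to 0.225). Its light-pool levels were 129, 127 and 105 CPM with vehicle and 116, 120 and 115 CPM with sorafenib, a difference of -0.04 ± 0.22 (edgeR adjusted p = 0.903), and 0.09 without the shallow pair (edgeR adjusted p = 0.845).

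SLC7A1 encodes CAT1, a carrier of arginine and lysine. Its polysome levels were 13.2, 14 and 16.1 CPM with vehicle and 26.8, 15.9 and 28.8 CPM with sorafenib. Sorafenib replicate 2 fell within the vehicle range and the other two lay above it. SLC7A1 rose by 0.72 ± 0.24 (edgeR adjusted p = 0.0184), a call that did not hold without vehicle polysome replicate 1 or 2 or without sorafenib polysome replicate 1 or 3 (0.55 to 0.69, edgeR adjusted p of 0.059 to 0.133).

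SLC7A1 went the other way in the light pool without passing the test, at 17.5, 21.9 and 23.2 CPM with vehicle and 12.9, 9.35 and 13.8 CPM with sorafenib, the latter from 22, 5 and 59 counts. The groups did not overlap and the difference was -0.71 ± 0.28 (edgeR adjusted p = 0.0665), and -0.44 without the shallow pair (edgeR adjusted p = 0.409). It passed at -0.75 without sorafenib polysome replicate 2 (edgeR adjusted p = 0.038). The treatment differences in the polysome and light pools were apart by 1.43 ± 0.37 (edgeR adjusted p = 0.00908), and by 1.43 without the shallow pair.

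The 2 ASCT transporters, sodium-dependent exchangers of small neutral amino acids, rose together on polysomes. SLC1A4, which encodes ASCT1 and carries serine and alanine, was at 14.9, 13.6 and 10.6 CPM in the vehicle and 32.4, 35.5 and 33.8 CPM in the sorafenib polysome libraries. The sorafenib libraries lay closely together and well above the vehicle ones, a rise of 1.38 ± 0.23 or 2.61-fold (edgeR adjusted p = 9.50e-05). Its level in the light pool was 15.4, 15.8 and 11.8 CPM with vehicle and 17, 11.2 and 22.9 CPM with sorafenib, the latter from 29, 6 and 98 counts, with overlap and a difference of 0.37 ± 0.26 (edgeR adjusted p = 0.299). It was 0.82 without the shallow pair (edgeR adjusted p = 0.0686) and passed at 0.79 when scaled by library totals (edgeR adjusted p = 0.0257).

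SLC1A5, the glutamine exchanger ASCT2, was at 41.7, 47.1 and 51 CPM in the vehicle and 112, 77.1 and 127 CPM in the sorafenib polysome libraries. All sorafenib libraries lay above all vehicle ones, and the rise was 1.18 ± 0.23 or 2.26-fold (edgeR adjusted p = 3.51e-04). Light-pool levels were 62.5, 64.8 and 76.1 CPM with vehicle and 65.2, 48.6 and 74.3 CPM with sorafenib, which overlap, and the difference was -0.07 ± 0.24 with a 95% interval of -0.57 to 0.42 (edgeR adjusted p = 0.841), and 0.29 without the shallow pair (edgeR adjusted p = 0.493). For both ASCT genes the sorafenib polysome group stood above the other 3 groups without overlap, and those 3 overlapped with their neighbours in order. The margin was narrow for SLC1A5, whose lowest sorafenib polysome library was at 77.1 CPM and highest vehicle light library at 76.1 CPM.

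The polysome difference exceeded the light one by 1.25 ± 0.33 for SLC1A5 (edgeR adjusted p = 0.00914) and by 1.01 ± 0.35 for SLC1A4 (edgeR adjusted p = 0.0397). Without the shallow pair the SLC1A5 value was 1.15 and that of SLC1A4 was 0.82. The SLC1A4 call did not hold without any 1 of vehicle light replicates 1 and 2, vehicle polysome replicates 2 and 3, sorafenib light replicate 1 and the 3 sorafenib polysome replicates (0.9 to 1.17, edgeR adjusted p of 0.0537 to 0.0886). The log2 ratio of SLC1A5 to SLC1A4 counts within a library differed between treatments by -0.24 in the polysome pool (two-sided exact permutation p = 0.6) and by -0.36 in the light pool (two-sided exact permutation p = 0.2).

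The 2 sodium-coupled SNAT genes did not share a pattern. SLC38A1, or SNAT1, was at 65.1, 82 and 83.3 CPM in the vehicle and 47.7, 52.3 and 50.1 CPM in the sorafenib polysome libraries. No library overlapped, and SLC38A1 fell by 0.62 on the log2 scale (SE 0.23, edgeR adjusted p = 0.0298). That call is the least stable of the 9: it did not pass in 26 of 33 alternatives, among them a fit of each pool by itself (-0.4, edgeR adjusted p = 0.0907), 9 other TMM references and the removal of any 1 library other than vehicle polysome replicate 1. Light-pool levels were 46.6, 45 and 39.2 CPM with vehicle and 27.6, 46.8 and 21.7 CPM with sorafenib, where the shallowest library, replicate 2, was as high as the vehicle libraries. The difference there was -0.58 ± 0.26 (edgeR adjusted p = 0.0951), and it passed at -0.72 without replicate 2 (edgeR adjusted p = 0.0223). Without the shallow pair that difference was -0.85.

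SLC38A2, or SNAT2, the glutamine and alanine carrier best known for its response to amino acid shortage, changed in the light pool. It was at 167, 165 and 109 CPM with vehicle and 39.9, 26.2 and 85 CPM with sorafenib, the latter from 68, 14 and 364 counts. Sorafenib libraries lay below all vehicle libraries, and SLC38A2 fell by 1.44 on the log2 scale (SE 0.41, edgeR adjusted p = 0.0136). The value was -0.64 and did not pass without the shallow pair (edgeR adjusted p = 0.414), and it did not pass without vehicle light replicate 1 or 2 or sorafenib light replicate 1 or 2 alone (-1.28 to -1.08, edgeR adjusted p of 0.0584 to 0.113). On polysomes it was at 124, 70.7 and 75 CPM with vehicle and 109, 41.8 and 150 CPM with sorafenib, with full overlap and a difference of 0.15 ± 0.39 (edgeR adjusted p = 0.761).

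The polysome difference of SLC38A2 exceeded the light one by 1.59 ± 0.56 (edgeR adjusted p = 0.0473). It was 1.05 without the shallow pair (edgeR adjusted p = 0.288), and it also lost the call without any 1 of vehicle light replicates 1 and 2, vehicle polysome replicates 2 and 3, sorafenib light replicates 1 and 2 and sorafenib polysome replicates 1 and 3 (1.22 to 1.7, edgeR adjusted p of 0.064 to 0.152). The log2 ratio of SLC38A2 to SLC38A1 counts within a library differed between treatments by 0.63 in the polysome pool and by -1.17 in the light pool (two-sided exact permutation p = 0.4 for each).

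Counted over the 9 genes, sorafenib raised 5 in the polysome pool (SLC3A2, SLC43A1, SLC7A1, SLC1A4 and SLC1A5) and lowered 1, SLC38A1. Of all 14955 genes tested 20.9% rose and 28.8% fell there. The median difference was 0.53 over the 9 genes and -0.26 over all genes. That balance of all genes depended on the scaling. With each pool fitted alone 4113 of 13868 genes rose and 3385 fell, with a median of 0.02. With vehicle polysome replicate 2 as the TMM reference 3928 rose and 3077 fell, with a median of -0.02. By RLE falls stayed the more common, at 3355 rises and 3958 falls. SLC3A2, SLC1A4 and SLC1A5 rose in the polysome pool in all 33 alternatives tried, over ranges of 3.22 to 3.87, 1.24 to 1.78 and 1.01 to 1.59. Libraries did not overlap for 4 genes that were higher (25.3% of all genes) and 1 that was lower (35%).

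In the light pool 1 of the 9 rose, SLC3A2, and 1 fell, SLC38A2, against 11.7% and 17.7% of all genes. The medians were -0.07 over the 9 and -0.12 over all genes. Libraries did not overlap for SLC3A2, which was higher (15% of all genes), or for SLC7A1 and SLC38A2, which were lower (24.6%). SLC3A2 is thus the 1 gene of the 9 that rose in both pools, and it did so in all 33 alternatives in the light pool too (1.16 to 2.38).

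**Figure D3:**
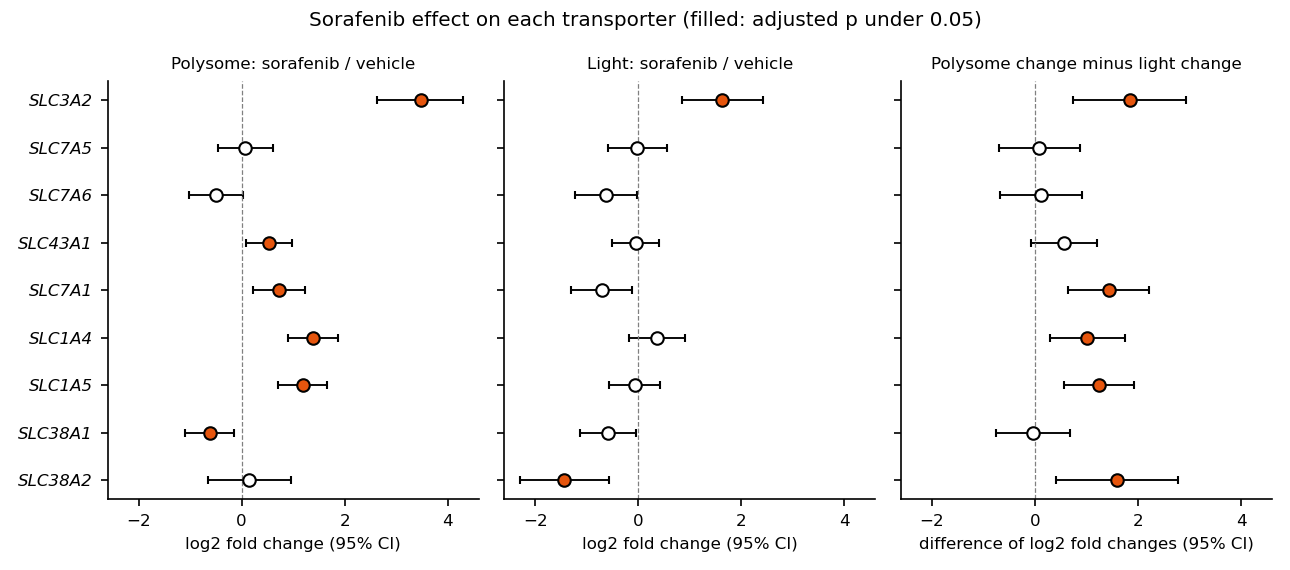
Log2 fold change of sorafenib over vehicle for each transporter in the polysome and light pools, and the polysome change minus the light change (horizontal axes). Bars are 95% intervals, and filled points have an edgeR adjusted p under 0.05. In the polysome and light panels SLC3A2 is at 3.47 and 1.63, SLC7A5 is at 0.07 and -0.02, and the other genes lie between -1.44 and 1.38. In the last panel the genes run from -0.04 (SLC38A1) to 1.84 (SLC3A2).

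The difference between the 2 treatment effects was positive and passed the test for 5 of the 9 genes, SLC3A2, SLC7A1, SLC1A4, SLC1A5 and SLC38A2, against 12.8% of all genes. Its median was 1.01 over the 9 and 0.02 over all genes. The other 4 genes were at 0.57 (SLC43A1), 0.12 (SLC7A6), 0.09 (SLC7A5) and -0.04 (SLC38A1). Without the shallow pair, which leaves 1 sorafenib light library, the calls of SLC3A2, SLC1A4 and SLC38A2 did not hold, while SLC7A1 and SLC1A5 kept theirs. Fewer of all genes passed in that setting too.

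Both pools came from the same culture, so the log2 ratio of polysome to light level was taken in each of the 6 cultures. For SLC1A5 it was -0.59, -0.46 and -0.58 in the vehicle and 0.78, 0.64 and 0.77 in the sorafenib cultures, replicates 1 to 3. SLC1A5 was thus lower in the polysome than in the light pool in every vehicle culture and higher there in every sorafenib culture, with an SD of 0.07 and 0.08. The ratio of SLC7A1 was -0.4, -0.64 and -0.54 with vehicle and 1.02, 0.63 and 1.05 with sorafenib. SLC3A2 was at -0.15, -1.1 and -0.47 with vehicle and 1.64, 2.13 and 0.81 with sorafenib. All 3 genes were below 0 in every vehicle culture and above 0 in every sorafenib culture.

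The same held for SLC38A2, at -0.43, -1.22 and -0.53 with vehicle and 1.44, 0.63 and 0.82 with sorafenib, and for SLC1A4, at -0.06, -0.21 and -0.17 and then 0.91, 1.55 and 0.56. SLC43A1 did not overlap either, at -0.28, -0.4 and -0.47 and then 0.27, -0.14 and 0.39. Differences of the mean ratio were 2.1 for SLC3A2, 1.69 for SLC38A2, 1.43 for SLC7A1, 1.27 for SLC1A5, 1.15 for SLC1A4 and 0.56 for SLC43A1. For each of these 6 the two-sided exact permutation p over cultures was 0.1, the smallest possible. The share of all genes without overlap in this ratio was not computed, so the count is not read as a trait of these genes. These ratios use the same libraries as the treatment tests and are another view of them.

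SLC7A5 and SLC38A1 were above 0 in every culture. SLC7A5 was at 0.91, 1.45 and 1.64 with vehicle and 1.65, 1.38 and 1.42 with sorafenib, and SLC38A1 at 0.48, 0.87 and 1.08 and then 0.78, 0.13 and 1.2. Vehicle and sorafenib cultures overlapped for both (differences of 0.15 and -0.11, two-sided exact permutation p = 0.8 for each). SLC7A6 also overlapped, at 0.03, 0.14 and 0.14 and then 0.68, 0.72 and -0.22 (difference 0.29, two-sided exact permutation p = 0.4).

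**Figure D4:**
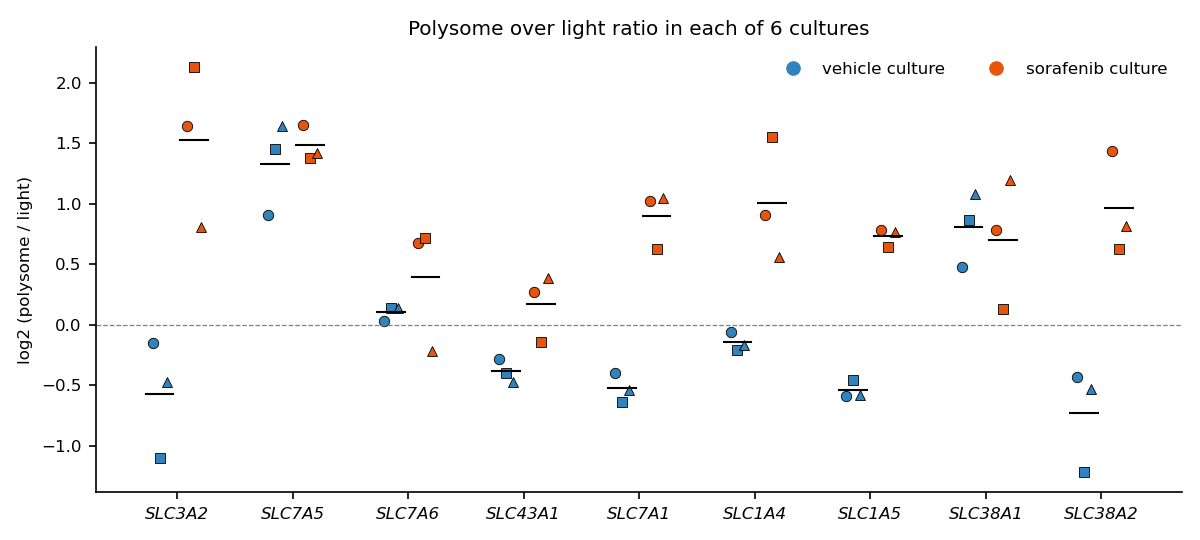
Log2 ratio of polysome to light level in each of the 6 cultures (vertical axis), by gene and treatment, with symbols for replicates and a line at the mean of 3 cultures. SLC1A5 lies between -0.59 and -0.46 in vehicle and between 0.64 and 0.78 in sorafenib cultures, while SLC7A5 lies above 0.9 in all 6.

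Tested over the 14955 genes, the vehicle cells had 2 of the 9 higher in the polysome than in the light pool, SLC7A5 and SLC38A1 (0.81 ± 0.23, edgeR adjusted p = 0.00908), against 18.3% of all genes. By edgeR 0 of the 9 were lower (17.8% of all genes), while 2 were lower at an unadjusted p under 0.05, and DESeq2 and voom called 1 each. With culture as a block, SLC1A5 at -0.54 and SLC38A2 at -0.73 were lower (edgeR adjusted p = 0.0482 and 0.0181). In the sorafenib cells 6 of the 9 were higher in the polysome pool, against 13.4% of all genes: SLC3A2 (1.32), SLC7A5 (1.45), SLC7A1 (0.9), SLC1A4 (0.86), SLC1A5 (0.71) and SLC38A1 (0.78), with edgeR adjusted p of 8.61e-04 to 0.0319. With culture as a block SLC38A2 passed too, at 1.02 (edgeR adjusted p = 0.00559). Without the shallow pair, which leaves 1 sorafenib light library, most of these calls did not hold, and fewer of all genes were called too. SLC7A5 was then at 1.25 and SLC38A1 at 1.34. The count was 3 without sorafenib polysome replicate 1 or 3, where 1571 of 16303 and 1459 of 16332 genes were higher. Polysome libraries lay wholly above light ones for SLC7A5 and SLC38A1 with vehicle (23.2% of all genes) and for the same 6 called genes with sorafenib (22.1%). They lay wholly below for SLC3A2, SLC7A1 and SLC1A5 with vehicle (25.1%).

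Among other amino acid transporters of the plasma membrane, 13 of 29 listed genes were measured well enough to test. On polysomes 6 of the 13 rose with sorafenib and the other 7 did not pass, with a median of 0.81, where 20.9% of all genes rose and their median was -0.26. Of the 6, SLC6A12 passed the low-count filter only through its sorafenib polysome libraries, with 26, 40 and 55 counts against at most 9 in any other library. Its call is therefore not independent of the filter. SLC38A3, the liver glutamine transporter SNAT3, went from 13.3, 9.57 and 4.82 CPM to 41, 48.1 and 46.8 CPM, a rise of 2.29 ± 0.31 (edgeR adjusted p = 1.24e-05). SLC7A2, a second cationic carrier, went from 24, 15.6 and 15.5 CPM to 35.7, 37.8 and 49.9 CPM, a rise of 1.16 (edgeR adjusted p = 0.0015). Neither overlapped between treatments. SLC7A11, the cystine and glutamate exchanger xCT that also pairs with the SLC3A2 heavy chain, rose by 1.57 (edgeR adjusted p = 0.00308). Its sorafenib replicate 2, at 7.34 CPM, lay within the vehicle range of 3.72 to 9.24 CPM. SLC1A2, a glutamate carrier, rose by 1.48 (edgeR adjusted p = 0.00355).

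SLC43A2, the LAT4 uniporter, was at 0.5 (edgeR adjusted p = 0.173). SLC7A7 and SLC7A8, 2 further light chains of the heavy chain, were too low to test, with at most 19 and 2 counts in a library. Of the 13, 1 rose in the light pool, which is a share below the 11.7% of all genes. That gene was SLC38A3, at 1.28 (edgeR adjusted p = 0.00513), and at 1.56 without the shallow pair.

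Transporters of lysosomes and other inner membranes were listed separately. Of 10 listed, 9 were tested on polysomes, where 1 rose (SLC38A10) and 3 fell (SLC36A1, SLC36A4 and CTNS), with a median of -0.41. The 3 falls are 33.3% of the tested genes, near the 28.8% of all genes that fell. The falls of SLC36A1, SLC36A4 and CTNS lost their call in 27 of 31, 20 of 32 and 16 of 32 alternatives, among them scaling by totals and the removal of the shallow pair or of sorafenib polysome replicate 1. SLC36A4, an amino acid transporter, went from 17.1, 12.8 and 14.8 CPM to 6.34, 11.6 and 6.71 CPM on polysomes. This was a fall of 0.86 on the log2 scale (edgeR adjusted p = 0.0195), and SLC36A4 fell in the light pool by 1.02 (edgeR adjusted p = 0.044). That light-pool call was lost in 21 of 32 alternatives, among them the pool fitted alone, totals, RLE, DESeq2 and every other TMM reference. The light-pool value was -1.54 without the shallow pair. SLC38A9, the lysosomal arginine sensor of mTORC1, was at 0.83 (edgeR adjusted p = 0.0568). Of 187 other tested genes with an SLC symbol, 33 rose and 40 fell on polysomes (17.6% and 21.4%), with a median of -0.13. Counts for these lists were not tested against each other.

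Genes of the amino acid response, which includes SLC7A1, SLC3A2 and other transporters as known targets, were listed apart from them. Of 15, 13 were tested, and on polysomes 8 rose and 1, ATF5, fell, with a median of 0.84, against 20.9% and 28.8% of all genes and their median of -0.26. ASNS, which makes asparagine, went from 7.16, 5.49 and 4.23 CPM to 29.1, 12.7 and 42.5 CPM, a rise of 2.31 (edgeR adjusted p = 4.42e-05). DDIT3, the stress factor CHOP, rose by 2.23 (edgeR adjusted p = 8.58e-05) and SESN2, a leucine sensor, by 1.37 (edgeR adjusted p = 0.00633). TRIB3, a pseudokinase induced by ATF4, went from 171, 231 and 149 CPM to 299, 92.4 and 293 CPM (0.31, edgeR adjusted p = 0.454). EIF2AK4, the kinase GCN2 that senses uncharged tRNA, was at -0.35 (edgeR adjusted p = 0.164). In the light pool 3 of the 13 rose and 2 fell (23.1% and 15.4%), against 11.7% and 17.7% of all genes. TRIB3 rose there by 1.06 (edgeR adjusted p = 0.0285), a call lost in 7 of 33 alternatives, and ASNS by 1.52 (edgeR adjusted p = 0.00588).

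ATF4 itself was at 469, 375 and 383 CPM in the vehicle and 406, 319 and 344 CPM in the sorafenib polysome libraries, which overlap (-0.2, edgeR adjusted p = 0.574). Its light-pool level was 1060, 1020 and 788 CPM with vehicle and 277, 137 and 326 CPM with sorafenib, without overlap. ATF4 fell there by 1.94 on the log2 scale (edgeR adjusted p = 1.42e-04), and its difference was -1.4 without the shallow pair. Its polysome and light differences were apart by 1.74 (edgeR adjusted p = 0.00417), and by 1.46 without the shallow pair.

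Among the genes whose level over the 12 libraries was most like that of SLC3A2, out of the 8894 genes whose mean log2 CPM was 3 or more, were HIF1A, WDR1, DUSP1 and ACVR1, with Pearson correlations of 0.984, 0.981, 0.98 and 0.979. The correlations of deviations from the group means were 0.9 to 0.93, so the likeness did not come from group means alone. HIF1A encodes the oxygen-regulated transcription factor and DUSP1 a phosphatase of MAP kinases, and they differed between treatments on polysomes by 2.09 and 3.05. For SLC7A5 the closest were ATG9A, USP22, DNAJC5, SRF and LASP1, at 0.97, 0.968, 0.965, 0.959 and 0.958. Their polysome differences between treatments ran from -0.34 to 0.46, and deviations from the group means correlated at 0.75 to 0.89. Among the 9 transporters SLC3A2 correlated with SLC1A4 at 0.89 and with SLC1A5 at 0.85, but with SLC7A5 at 0.23 and with SLC38A1 at -0.49. For deviations from the group means the same pairs were at 0.58, 0.73, 0.38 and -0.88. All of these correlations are descriptions over libraries that share 6 cultures.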

How the data were processed

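RNA of light and polysome gradient pools was sequenced in 12 HepG2 libraries. For each gene the authors deposited counts in whole numbers, with no normalization. Per the submitters' processing notes the genome was GRCh38.p12. The sources used here do not give the aligner, the counter, the annotation or whether strand was used. The series is typed as ribosome profiling, but the labels' protocols describe libraries from the RNA of pooled fractions.

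R 4.3.3 was used with DESeq2 1.42.0, limma 3.58.1 and edgeR 4.0.16, whose filterByExpr was applied to the 4 groups. The 42398 features it removed took up to 4.54% of the counts of a library. The TMM factors ran from 0.637 to 1.41, and the common biological coefficient of variation was 0.245. One quasi-likelihood fit used all 12 libraries without a block. An SE was obtained by dividing the size of the log2 fold change by the root of F. Ratios used a prior count of 0.5. The fit was tested on simulated data.

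The 9 genes and the gene lists were chosen with earlier results of these data known. All 9 were named. Of the other transporters, the 4 with the smallest p on polysomes, the 2 with the smallest p in the light pool and 5 fixed genes were named, with 6 fixed genes of the amino acid response and the 5 nearest patterns of SLC3A2 and of SLC7A5, of which 1 is not reported here. SLC6A12, SLC38A10, SLC36A1, CTNS and ATF5 were named after their values were seen.

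Per the labels, libraries that share treatment and number are pools of the same culture. Deviations of such libraries from group means correlated at 0.12, -0.09 and 0.28 with vehicle and at 0.04, 0.03 and 0.03 with sorafenib. Replicates of a group were not the same library, since chi-square over its degrees of freedom was 9.97 to 50.7. Where cultures were not independent, the p-values reflect no more than the spread among these libraries. Alternatives changed scaling, filter, tool, samples, depth and blocks.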

Additional observations from a re-analysis of the deposited data

Results flagged for a closer look

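For 5 of the 9 transporters the effect of sorafenib differed between the polysome and light pools by a test of the difference itself, which 12.8% of all genes passed in the same direction. The polysome log2 fold change minus the light one was 1.84 for SLC3A2 (edgeR adjusted p = 0.0151), where both pools rose. It was 1.43 for SLC7A1 (edgeR adjusted p = 0.00908), which was higher with sorafenib on polysomes and lower in the light pool. SLC1A5 differed by 1.25 (edgeR adjusted p = 0.00914) and SLC1A4 by 1.01 (edgeR adjusted p = 0.0397), and both rose on polysomes. SLC38A2 differed by 1.59 (edgeR adjusted p = 0.0473), with its fall in the light pool. In all of these genes the polysome to light ratio was higher in 3 of 3 sorafenib cultures than in any vehicle culture, and the share of all genes with this was not computed. The light pool with sorafenib holds the shallowest libraries, with 5, 6 and 14 counts of SLC7A1, SLC1A4 and SLC38A2 in replicate 2. Without replicates 1 and 2 of that group, SLC3A2 (1.34), SLC1A4 (0.82) and SLC38A2 (1.05) no longer passed. That setting leaves 1 library in the group, and fewer of all genes passed in it too.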

How the results depend on the processing

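Most calls rest on 3 libraries a group and on the scaling. Scaling by totals moved the median of all genes from -0.12 to 0.31 in the light pool, from 0.02 to -0.26 for the difference between pools, and for polysome against light from -0.06 to 0.82 in vehicle and from 0 to 0.6 in sorafenib cells. For treatment on polysomes that median went from -0.26 to -0.11 by totals, -0.19 by RLE and 0.02 with each pool fitted alone. Genes that fell in the light pool numbered 1 at first, 0 by totals and 0 to 2 leaving out 1 library. They numbered 2 with voom or the number as a replicate block, where 2269 and 2623 of 14955 genes fell. Rises there went from 1 to 2 by totals, where 3650 of 14955 genes rose. The 1 polysome fall became 0 with each pool fitted alone, totals, RLE, 9 TMM references, no filter, without the shallow pair and thinned (0 to 2 leaving out 1 library). The 5 polysome rises became 3 when thinned, where 1721 of 7859 genes rose (3 to 5 leaving out 1). In sorafenib cells 6 higher on polysomes became 9 by totals, where 5587 of 14955 genes were higher (3 to 8 leaving out 1). They became 3 from those groups alone (1609 of 13206 genes) and 2 thinned (642 of 7859 genes). They were also fewer without the shallow pair, as were those of all genes. The 5 differences between pools became 3 by totals (1210 of 14955 genes) and 3 with the vehicle light libraries as TMM reference (1794 to 1811 of 14955). They became 2 when thinned, where 824 of 7859 genes passed in that direction (3 to 5 leaving out 1). They were also fewer without the shallow pair, as were those of all genes. In vehicle cells 0 lower became 1 from those groups alone, by RLE, DESeq2 and voom (0 to 1 leaving out 1). They became 2 with sorafenib polysome references (3177 to 3225 of 14955 genes), at least 1 CPM (2493 of 11067) or the culture as a replicate block (2853 of 14955). The 2 higher became 4 by totals, where 7314 of 14955 genes were higher, and 1 thinned, where 1084 of 7859 genes were higher. The cultures' ratio differences moved with a prior of 5 counts for SLC1A5 (1.17) and SLC7A1 (1.04), and by totals for SLC1A5 (0.96), SLC43A1 (0.24), SLC7A1 (1.12) and SLC7A5 (-0.16).

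Signs turned only for values not called at first. By totals, where the median of all genes moved up to 0.82, polysome minus light in vehicle cells was 0.73 for SLC1A4 (edgeR adjusted p = 0.0128), 0.34 for SLC1A5, 0.18 for SLC38A2, 0.38 for SLC3A2, 0.51 for SLC43A1 and 0.35 for SLC7A1. The cause of the other turns was not tested. In the light pool SLC1A5 was at 0.05 with that pool alone, 0.37 by totals, 0.01, 0.02, 0.03 and 0.04 with other references and 0.29 without the shallow pair. SLC43A1 there was at 0.1 alone, 0.43 by totals, 0.02 by RLE, 0.02, 0.03, 0.04, 0.05, 0.06 and 0.07 with references, 0.01 by DESeq2 and at least 1 CPM, 0.09 without the shallow pair and 0.11 thinned. SLC7A5 there was at 0.1 alone, 0.43 by totals, 0.04 by RLE, 0.05, 0.06, 0.07, 0.08, 0.09 and 0.1 with references, 0.03 by DESeq2, 0.02 by voom and at least 1 CPM, and 0.46 without the shallow pair. The difference between pools of SLC38A1 was 0.03, 0.1 and 0.11 with references, 0.02 by DESeq2, 0.11 by voom, 0.53 with no filter and 0.5 without the shallow pair. That of SLC7A5 was -0.19 by totals and -0.13 without the shallow pair, and that of SLC7A6 -0.15 and -0.11. SLC43A1 in sorafenib cells was at -0.09 thinned, and SLC7A6 in vehicle cells at -0.03 and -0.04 with references and -0.4 thinned. Leaving out 1 library, signs turned in the light pool for SLC1A5 (-0.24 to 0.17), SLC43A1 (-0.11 to 0.06) and SLC7A5 (-0.3 to 0.23), on polysomes for SLC38A2 (-0.26 to 0.51) and SLC7A5 (-0.16 to 0.35), between pools for SLC38A1 (-0.12 to 0.35), SLC7A5 (-0.1 to 0.65) and SLC7A6 (-0.05 to 0.8), and in vehicle cells for SLC7A6 (-0.01 to 0.31).

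Deviations of libraries with the same replicate number under the 2 treatments correlated at -0.16 to 0.03. Pools of the same culture, which the labels pair, gave only -0.09 to 0.28, so this measure cannot exclude pairing by number. With the number as a replicate block SLC43A1 on polysomes (0.53, edgeR adjusted p = 0.0573) lost its call. The SLC1A4 difference between pools (1, edgeR adjusted p = 0.0566) lost its call too, and SLC7A1 in the light pool gained a call (-0.79, edgeR adjusted p = 0.0479). The culture block in edgeR changed no call beyond those in vehicle and sorafenib cells given above. With voom and the culture as a replicate block, the SLC38A2 difference between pools (1.45, limma adjusted p = 0.0521) and SLC7A1 in sorafenib cells (0.83, limma adjusted p = 0.0555) lost their calls, and SLC38A1 in the light pool (-0.72, limma adjusted p = 0.0383) and SLC1A5 in vehicle cells (-0.54, limma adjusted p = 0.0331) gained one. Leaving out 1 library, added after seeing the data, kept the SLC3A2 to SLC7A5 count ratio's shift at 2.94 to 3.8 on polysomes and 1.2 to 1.87 in the light pool.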
